A study of Sus scrofa with 8 samples.

Results

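Rab, ARF and other vesicle trafficking genes were followed in the endometrium of 4 Meishan and 4 Yorkshire gilts on day 12 of pregnancy. Members were the probesets whose gene symbol opened with RAB, ARF, SNX, VPS, STX, VAMP or COP and went on with a digit or with A, B, E, G or Z. The array annotation named 158 such probesets, and 8 more carried such a symbol only in the study's own supplementary list of probesets with a low q-value. Together they made 166 of the 23999 probesets tested and covered 103 gene names. On this array a set of short probes, the probeset, reads 1 transcript or a part of it. The symbol rule also took in VPS72, a subunit of chromatin complexes with no known part in trafficking, and 4 probesets that the annotation shares between STX12 and STX7.

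Vesicles carry membrane and cargo between the endoplasmic reticulum, the Golgi, endosomes, lysosomes and the plasma membrane. Small ARF GTPases and coat proteins such as COPI shape the vesicle, Rab GTPases and tethers bring it to its target, and SNARE proteins, among them syntaxins and VAMPs, fuse the membranes. Sorting nexins, the retromer and ESCRT proteins decide whether endocytosed cargo is recycled or sent to lysosomes. At this stage of pregnancy the glands of the pig uterus secrete into the lumen, where the conceptus elongates, and the luminal epithelium takes part in the exchange.

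The Meishan is a prolific Chinese breed and the Yorkshire a European one, and each gilt had been mated to boars of its own breed at the second or the third estrus. Both groups were pregnant, no group was cyclic, and uteri without elongated conceptuses were left out by the study. The endometrium of each gilt was hybridized to 1 one-colour Affymetrix Porcine Genome array, and whole endometrial tissue was used, so fewer cells of a type and less RNA per cell cannot be told apart. Values are centred signals, the deposited intensities after each array had been brought to 1 common median. A signal of 64, reached in at least 2 of the 4 gilts of a breed, stood in for detection.

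Array medians before centring lay at 168 to 195 in Meishan and 171 to 187 in Yorkshire. The defining epithelial markers KRT8, KRT18, KRT19, EPCAM, CDH1, CLDN4 and MUC1 were all measured at 64 or more. Their summed signal overlapped between the breeds, at 26272 to 43908 in Meishan and 28475 to 42018 in Yorkshire. The summed signal of 5 stromal markers did not overlap, at 56787 to 62463 in Meishan and 45689 to 54737 in Yorkshire, with VIM and DCN higher in every Meishan gilt and COL3A1 at a log2 difference, Meishan minus Yorkshire, of -0.79. Nor did that of 5 endothelial markers, at 4853 to 4954 in Meishan and 5149 to 6873 in Yorkshire. Of these only CDH5 (-0.58) was higher in every Yorkshire gilt. VWF (-0.53), TEK (-0.32) and KDR (-0.09) overlapped, and PECAM1 gave 0.11 toward Meishan with overlap. Of the conceptus trophectoderm list, 5 of 8 genes were measured, with a sum of 356 to 1448 in Meishan and 296 to 7304 in Yorkshire, where gilts 1 and 3 had 6504 and 7304. The 5 leukocyte markers measured summed to 365 to 731 in Meishan and 473 to 555 in Yorkshire. CD79B of B cells was called by limma (adjusted p 0.092), with a mean of 80.4 in Meishan and 34.3, below 64, in Yorkshire. Of the other leukocyte markers CD14 gave 0.60 toward Meishan, and CD3E -0.66, CD3D -0.49 and PTPRC -0.20 toward Yorkshire. The hybridization spike-ins, control RNAs added to each sample, averaged 2644 to 5627 in Meishan and 1399 to 1996 in Yorkshire, without overlap. Slide and scan order are not given, so a hybridization batch cannot be told apart from breed. The part of these marker and spike-in values in any result below was not tested.

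Differences of trafficking genes between the breeds were mostly small. Of the 158 probesets named by the annotation, 77 were higher in Meishan and 81 higher in Yorkshire, with a median log2 difference, Meishan minus Yorkshire, of -0.02 against 0.02 over all 23999. This split turned to 85 higher in Meishan and 73 higher in Yorkshire without further scaling of the arrays and likewise with quantile normalization. The median size of the difference was 0.24 on the log2 scale in trafficking probesets and 0.34 over all probesets. Among probesets that reached 64 these medians were 0.23 for trafficking and 0.29 for all. Differences of 1 log2 unit or more were found for 8 trafficking probesets, 5.06%, against 13.4% of all probesets, and among those that reached 64 for 3.92% against 8.66%. The 95% interval of the difference lay inside a 2-fold change in either direction for 106 of the 158, 67.1%, and for 43.9% of all probesets, or 69.3% against 55.2% among those that reached 64.

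Only 1 of the 158, a probeset of ARFGAP3, passed the test at an adjusted p under 0.1, and it was lower in Meishan. The test was limma with Benjamini-Hochberg adjustment over all probesets, and it called 0.908% of the array, 0.404% toward Meishan and 0.504% toward Yorkshire. At an unadjusted p under 0.05, 16 of the 158 were found (10.1%), 6 toward Meishan and 10 toward Yorkshire, against 14.8% of all probesets, 7.79% toward Meishan and 6.96% toward Yorkshire. All gilts of 1 breed lay above all of the other for 10 of the 158 (6.33%), 4 with Meishan above and 6 with Yorkshire above, against 10.1% of all probesets, 5.01% with Meishan above and 5.09% with Yorkshire above. The shares at an unadjusted p and without overlap were below those of the array, and a single call allows no such comparison. The study's own fit reported many more transcripts at a q-value under 0.1 than were called here. Of the 158, 14 also carry such a symbol in its list. The 8 members that only the study's list names are left out of these counts, since that list chose them by the breed difference on the same arrays.

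**Figure D1:**
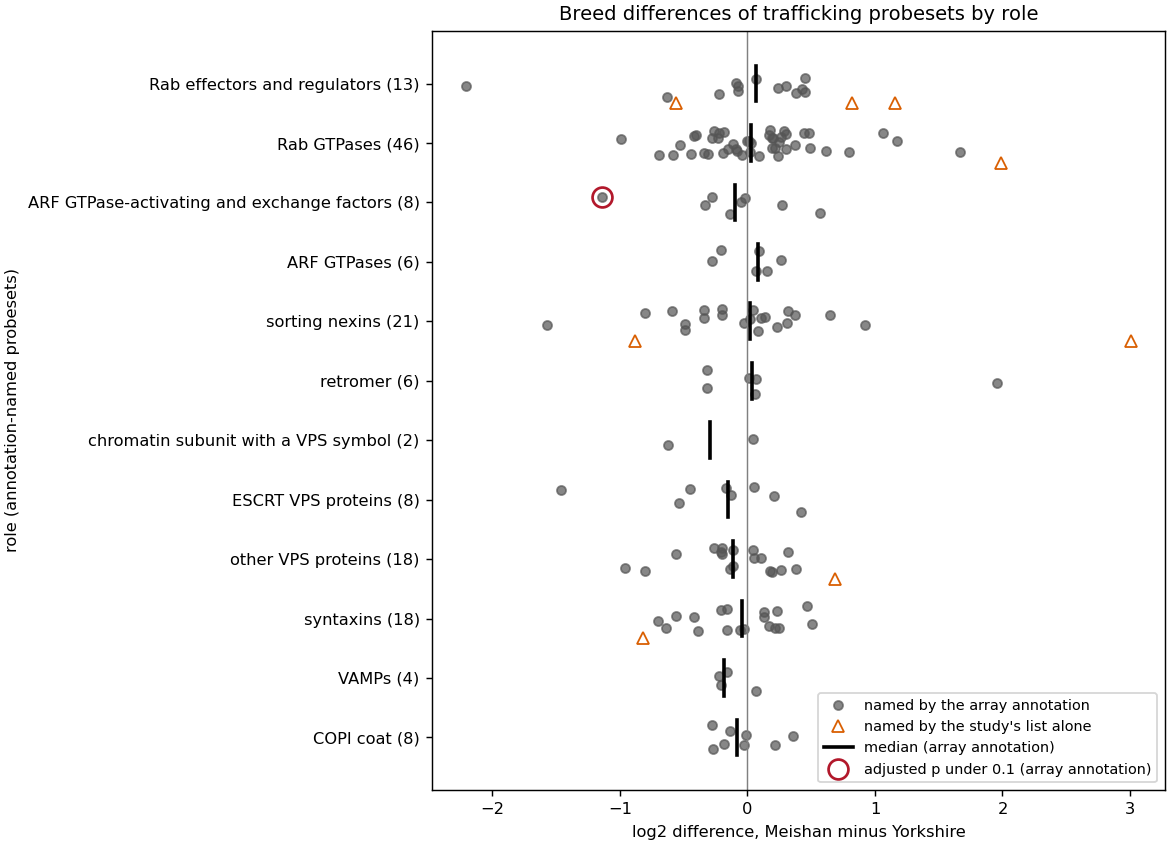
Log2 difference (Meishan minus Yorkshire, horizontal axis) of every trafficking probeset, grouped by role down the page. Grey points are the 158 probesets named by the array annotation, bars their medians, triangles the 8 probesets named by the study's list alone, and the ring the single called annotation-named probeset, ARFGAP3 at -1.14. Every role has probesets on both sides of 0, with medians from -0.29 to 0.08.

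Signals of this machinery were mostly well above the level of detection. Of the 158 probesets, 153 reached 64 in a breed (96.8%, against 77.7% of all probesets), and the median signal was 507 against 179. Probes differ in how well they bind, so a brighter probeset is not a more abundant transcript. All 46 Rab GTPase, 6 ARF, 8 COPI, 18 syntaxin and 4 VAMP probesets were among them. The 5 that did not reach 64 in 2 gilts of a breed belonged to RABGAP1, VPS53, VPS13C, VPS26B and SNX8, and among the 8 named by the list alone the RAB19 probeset did not. Trafficking probesets also varied less among gilts of a breed, with a median SD of 0.32 log2 units in Meishan and 0.24 in Yorkshire, against 0.43 in Meishan and 0.39 in Yorkshire over all probesets. Among those that reached 64 the median SD of trafficking probesets was 0.31 in Meishan and 0.24 in Yorkshire, against 0.36 in Meishan and 0.33 in Yorkshire over all.

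Among the Rab GTPases, the switches that give each membrane its identity, 26 of 46 probesets were higher in Meishan and 20 higher in Yorkshire, with a median of 0.02. None passed the adjusted test, and 7 (15.2%, against 14.8% of all probesets) had an unadjusted p under 0.05, 4 toward Meishan and 3 toward Yorkshire. RAB8A, which directs vesicles to the plasma membrane, had the lowest p of them. Its dimmer probeset gave 116, 140.3, 239 and 215 in Meishan gilts 1 to 4, against 88.7, 59.4, 79.5 and 105 in Yorkshire gilts 1 to 4. All 4 Meishan values lay above the Yorkshire ones, Meishan gilt 1 by a small margin. The log2 difference was 1.06 ± 0.30 (SE, n = 4 each) with a limma adjusted p of 0.178. The brighter RAB8A probeset gave 281, 186, 313 and 195 in Meishan and 154, 187, 125 and 157 in Yorkshire, a difference of 0.62 ± 0.24 with an adjusted p of 0.286. There the breeds overlapped, by Meishan gilt 2 and Yorkshire gilt 2. RAB3IP, the exchange factor that activates RAB8, had 412, 359, 343 and 479.5 in Meishan and 269.5, 240.4, 313 and 344 in Yorkshire, a difference of 0.45 with an adjusted p of 0.344.

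RAB11A and RAB11B, closely related GTPases of the recycling endosome, stood on opposite sides. RAB11A had 1455, 1083, 1115 and 1356 in Meishan gilts and 2114, 1704, 1675 and 1698 in Yorkshire gilts. No Meishan gilt reached the lowest Yorkshire gilt, and the difference was -0.53 (95% interval -0.95 to -0.11) with a limma adjusted p of 0.245. The brighter RAB11A probeset gave -0.15, with overlapping gilts. RAB11B had 254, 296, 252 and 99.0 in Meishan and 99.2, 119.7, 55.1 and 113 in Yorkshire. Meishan gilt 4 stood with the Yorkshire gilts while the other 3 Meishan gilts were higher, and the difference was 1.17 ± 0.41 with an adjusted p of 0.247. The brighter RAB11B probeset gave 0.24, with an interval of -0.33 to 0.82. The difference between the 2 genes was not tested, and whether their probes bind both transcripts was not examined. RAB11FIP2, an effector that binds RAB11, is named by the study's list alone and had 173, 204, 147 and 116 in Meishan against 282, 231, 179 and 245 in Yorkshire.

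RAB24, an unusual Rab linked to autophagy, and RAB9A, which returns receptors from late endosomes to the Golgi, were both on the Yorkshire side. RAB24 gave 283, 221, 312 and 285 in Meishan and 372, 446, 424 and 533 in Yorkshire, with no overlap. Its difference was -0.69 ± 0.19 with a limma adjusted p of 0.18, and the brighter probeset gave -0.40 with overlap. RAB9A gave 326, 567, 448 and 458 in Meishan and 758, 1150, 1215 and 564 in Yorkshire. Yorkshire gilt 4 lay among the Meishan values, the other 3 Yorkshire gilts above them, and the difference was -0.99 ± 0.30 with an adjusted p of 0.2. The study's list gives this probeset another gene name, WNT2B, so its identity is uncertain. The other RAB9A probeset gave -0.44 with overlap. RABEPK, which binds RAB9, had 3 probesets at 0.38 to 0.45, none with an unadjusted p under 0.05.

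**Figure D2:**
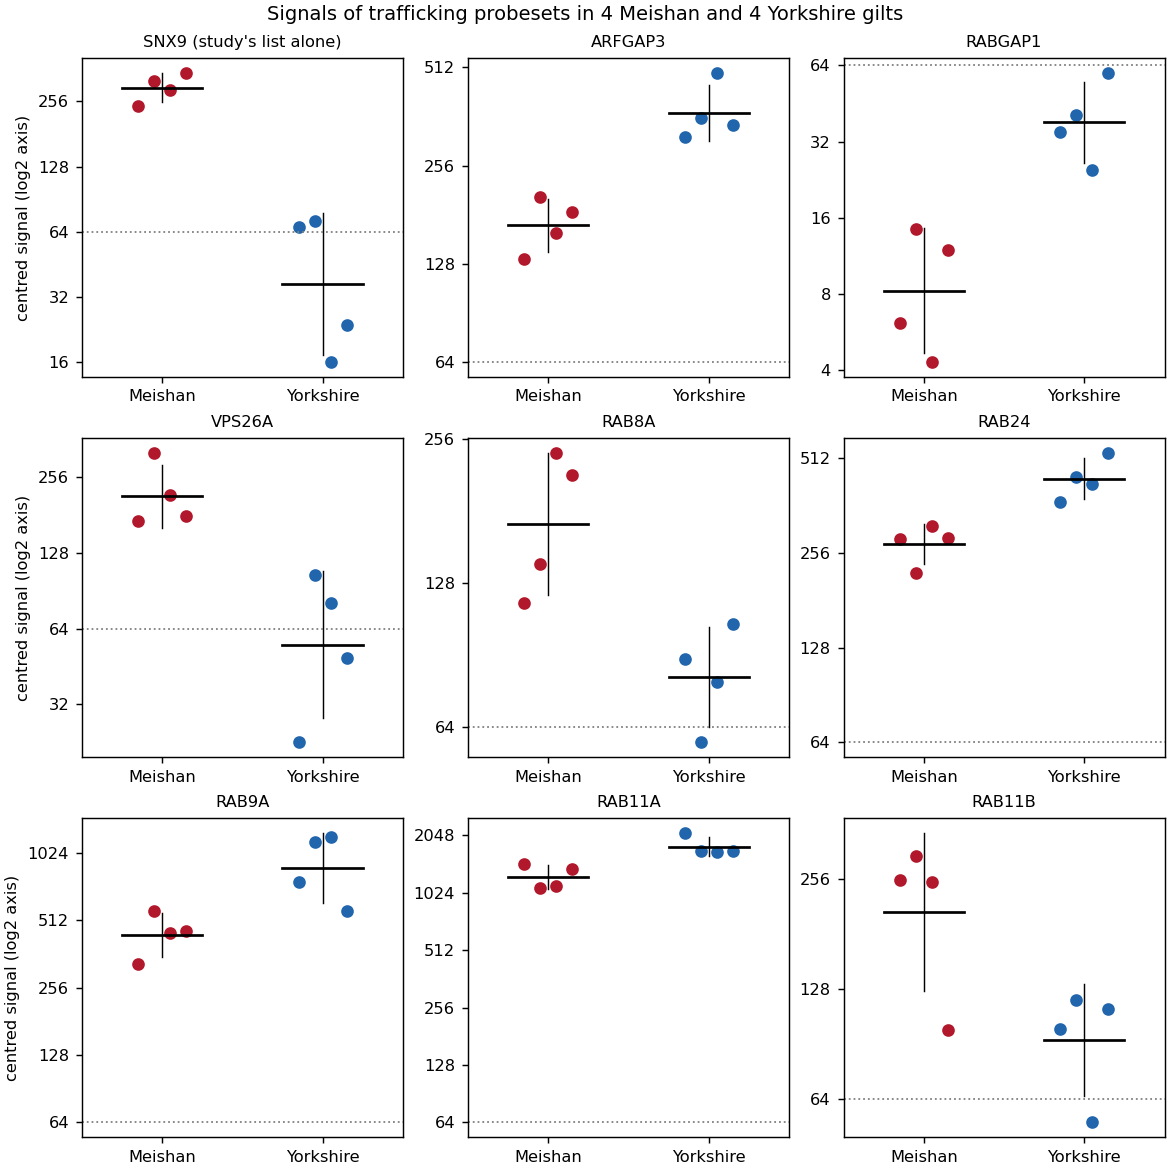
Centred signal (log2 axis) of 9 trafficking probesets in 4 Meishan and 4 Yorkshire gilts. Points are gilts, horizontal bars means of the log2 values, vertical lines 1 SD on the log2 scale, and the dotted line the signal of 64. ARFGAP3, RAB24 and RAB11A lie lower in every Meishan gilt and RAB8A and VPS26A higher, while RAB9A and RAB11B overlap and RABGAP1 stays below 64 in all 8 gilts.

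The brightest probeset of the role, that of RAB2A in endoplasmic reticulum to Golgi traffic, had 4137 to 6153 in Meishan and 4601 to 5953 in Yorkshire, a difference of -0.08. RAB1A, which acts in the same step, had 3 probesets at 0.22 to 0.37. RAB6A, a Golgi Rab, differed by 0.01 with an interval of -0.42 to 0.45, and RAB13 of tight junctions by 0.00 with an interval of -0.49 to 0.50. RAB7A, which marks late endosomes, gave 1589 to 1982 in Meishan and 1751 to 2431 in Yorkshire, a difference of -0.28. The 3 probesets of RAB23, a regulator of Hedgehog signalling, gave 0.18 to 0.49, and the 4 of RAB10 gave -0.04 to 0.44. RAB34 had 222 to 256 in Meishan and 266 to 304 in Yorkshire. Its gilts did not overlap although the difference was only -0.26, and the limma adjusted p was 0.48.

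RAB26 varied widely among gilts. This GTPase, known from secretory granules, had 4790, 139, 1551 and 4977 in Meishan gilts 1 to 4, against 346, 343, 153 and 2791 in Yorkshire gilts 1 to 4. It was high in Meishan gilts 1 and 4 and Yorkshire gilt 4 and low in Meishan gilt 2 and Yorkshire gilt 3, the widest spread in either breed among the annotation-named probesets with a mean of 64 or more (SD 2.42 log2 units in Meishan and 1.79 in Yorkshire). The breed difference of 1.67 ± 1.30 had a limma adjusted p of 0.6. RAB27B, which docks secretory granules and exosome-forming bodies, had 439.9, 792, 1188 and 379 in Meishan and 1171, 1148, 1030 and 568 in Yorkshire. RAB15, a Rab of endocytic recycling, had 311, 453, 464 and 307 in Meishan and 566, 927, 589 and 209 in Yorkshire. The 3 gilts highest for RAB26 (Meishan gilts 4 and 1 and Yorkshire gilt 4) were the 3 lowest for RAB27B and for RAB15. RAB27B and this ordering were singled out after the values had been seen and have no test. The summed epithelial markers were 43908, 26272, 35391 and 33656 in Meishan gilts 1 to 4, against 32456, 28475, 35250 and 42018 in Yorkshire gilts 1 to 4, so RAB26 was high in the gilts with the 2 highest sums, and in Meishan gilt 4 with a middle one. The summed signal of 4 smooth muscle markers was 19182, 7573, 14332 and 17463 in Meishan gilts 1 to 4, against 15101, 11792, 14635 and 20060 in Yorkshire gilts 1 to 4. The 3 gilts highest for RAB26 had the 3 highest of these sums, and Meishan gilt 2, lowest for RAB26, had the lowest. Yorkshire gilt 3, nearly as low for RAB26 at 153, did not follow either sum. Its smooth muscle sum of 14635 lay above that of Meishan gilt 3, which had 1551 for RAB26. Its epithelial sum of 35250 lay above that of Meishan gilt 4, which had 4977. The part of either cell type in these signals was not tested. RAB3D, also of secretory granules, had 3 probesets on different sides of 0. The brightest gave 675 to 1146 in Meishan and 836 to 1510 in Yorkshire, a difference of -0.31. A dim one gave 55.9 to 80.6 in Meishan and 26.1 to 77.2 in Yorkshire, and the dimmest 29.4 to 75.8 in Meishan and 27.5 to 30.5 in Yorkshire. The gilts overlapped in all 3, and since no Yorkshire gilt reached 64 in the dimmest, no fold is given for it.

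**Figure D3:**
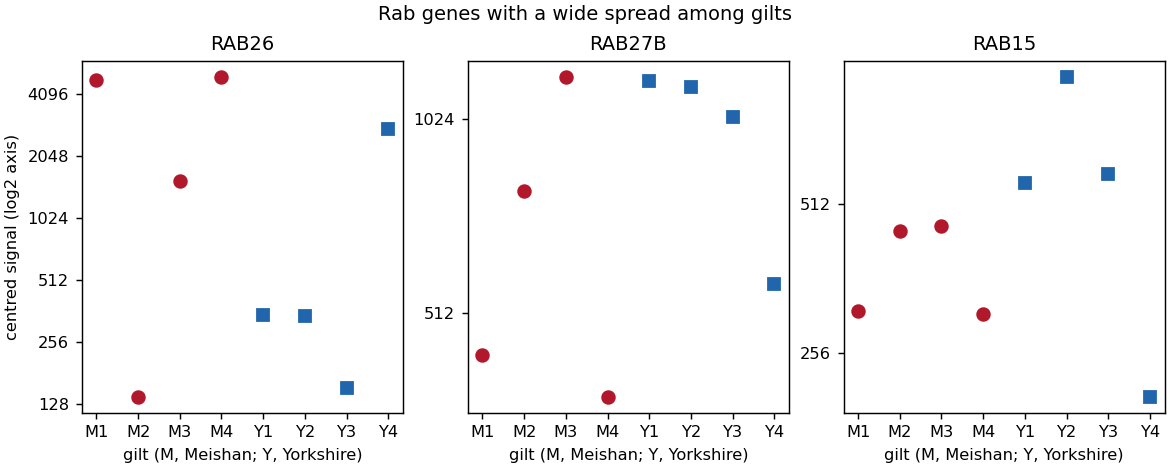
Centred signal (log2 axis) of RAB26, RAB27B and RAB15 in each gilt, Meishan as circles and Yorkshire as squares. Meishan gilts 1 and 4 and Yorkshire gilt 4 are high for RAB26, at 2791 to 4977, and low for RAB27B and RAB15.

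Of the Rab effectors and regulators, 7 of 13 probesets were higher in Meishan and 6 higher in Yorkshire. RABGAP1, which switches Rabs off, had the lowest p, but its signals of 6.16, 14.5, 4.30 and 12.0 in Meishan and 34.9, 40.8, 24.8 and 60.0 in Yorkshire all lay below 64. The gilts did not overlap and the limma adjusted p was 0.102, rising to 0.445 when signals under 32 were set to 32. No fold is given at this level. RAB3GAP1 and RAB3GAP2 form 1 complex that switches RAB3 off. The bright RAB3GAP1 probeset gave 802 to 1074 in Meishan and 1040 to 1142 in Yorkshire, a difference of -0.22. RAB3GAP2 gave 1722, 712, 704 and 969 in Meishan and 1419, 1341, 1556 and 1604 in Yorkshire. Meishan gilt 1 was the highest of all 8 and the other 3 Meishan gilts lay below every Yorkshire gilt, with a difference of -0.63 and an adjusted p of 0.384. A dim RAB3GAP2 probeset gave 25.9 to 129 in Meishan and 28.6 to 111 in Yorkshire. The third RAB3GAP2 probeset, with means of 718 in Meishan and 764 in Yorkshire, gave -0.09 with overlapping gilts. RABAC1, the brightest of the role and a receptor for prenylated Rabs, gave -0.07 with overlapping gilts.

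ARFGAP3, which switches ARF1 off at the Golgi, carried the call. The dimmest of its 3 probesets had 133, 205, 159 and 184 in Meishan gilts 1 to 4, against 314, 357, 493 and 341 in Yorkshire gilts 1 to 4. Every Yorkshire gilt was above every Meishan gilt, and means were 168 in Meishan and 371 in Yorkshire, 2.20-fold lower in Meishan. The log2 difference was -1.14 ± 0.22 (95% interval -1.65 to -0.63) with a limma adjusted p of 0.0957. The call was lost when any 1 of the 8 gilts was left out (adjusted p 0.126 to 0.199) and without further scaling of the arrays (0.122), with Meishan lower each time. The 2 other ARFGAP3 probesets were brighter and gave smaller differences in the same direction. The brightest had 1426, 1204, 1003 and 1244 in Meishan and 1653, 1769, 1288 and 1430 in Yorkshire, a difference of -0.33 (95% interval -0.77 to 0.11), and the third gave -0.14. These 3 probesets kept 1 direction under each scaling tried.

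The other regulators of ARF were ARFGAP2, a relative of ARFGAP3, and ARFGEF2, which switches ARFs on. ARFGAP2 gave 0.57, -0.02 and -0.05 in its 3 probesets and ARFGEF2 0.27 and -0.28 in its pair, so neither had 1 direction. ARF1 itself, a GTPase that recruits COPI, had 11628, 8867, 9001 and 10219 in Meishan and 8172, 8550, 10696 and 9782 in Yorkshire. The difference was 0.09 with an interval of -0.32 to 0.51. ARF4 differed by 0.07, ARF5 by 0.15 and ARF6, which acts at the plasma membrane, by -0.21. No ARF probeset had an unadjusted p under 0.05.

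The COPI coat, which returns vesicles to the endoplasmic reticulum, was measured by 8 probesets of 7 genes, and none had an unadjusted p under 0.05. Their differences ran between -0.28 for COPG2 and 0.36 for 1 COPB1 probeset, with COPZ1 at 0.22. COPA, the brightest, had 4006, 2448, 2385 and 2809 in Meishan and 3141, 3145, 3222 and 4331 in Yorkshire. Meishan gilt 1 and Yorkshire gilt 4 were high, the other Meishan gilts lay below every Yorkshire gilt, and the difference was -0.27. The same Meishan gilt was the highest of all 8 in 4 of the 7 COPI genes, each taken at its brightest probeset.

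Meishan gilt 1 was high in some other roles too. Its median deviation from the mean of the 8 gilts was 0.46 log2 units in COPI, 0.33 in sorting nexins, 0.33 in ESCRT proteins and 0.28 in ARF GTPases, where Yorkshire gilt 4 had 0.27. It was near 0 in syntaxins (0.05), the retromer (0.01) and VAMPs (-0.06). Meishan gilt 2 had -0.35 in COPI and -0.35 in ESCRT proteins. Over 97 trafficking genes at 64 or more, Meishan gilt 1 had a median of 0.16 and was the highest gilt for 29 genes (29.9%), against 0.08 and 20.2% over all probesets at that level. That gilt also had the lowest ratio of 3′ to 5′ actin signal, a sign of RNA quality, at 1.56, against 2.63 to 3.32 in the other Meishan gilts and 2.01 to 4.45 in Yorkshire, while its GAPDH ratio of 3.41 lay beside the lowest, 3.38 in Yorkshire gilt 4. Meishan gilt 2 had the highest GAPDH ratio of all 8, at 7.14, and an actin ratio of 3.32. The part of RNA quality was not tested. Without Meishan gilt 1, 64 trafficking probesets were higher in Meishan and 94 higher in Yorkshire, with a median of -0.11 against 0.00 over all probesets.

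**Figure D4:**
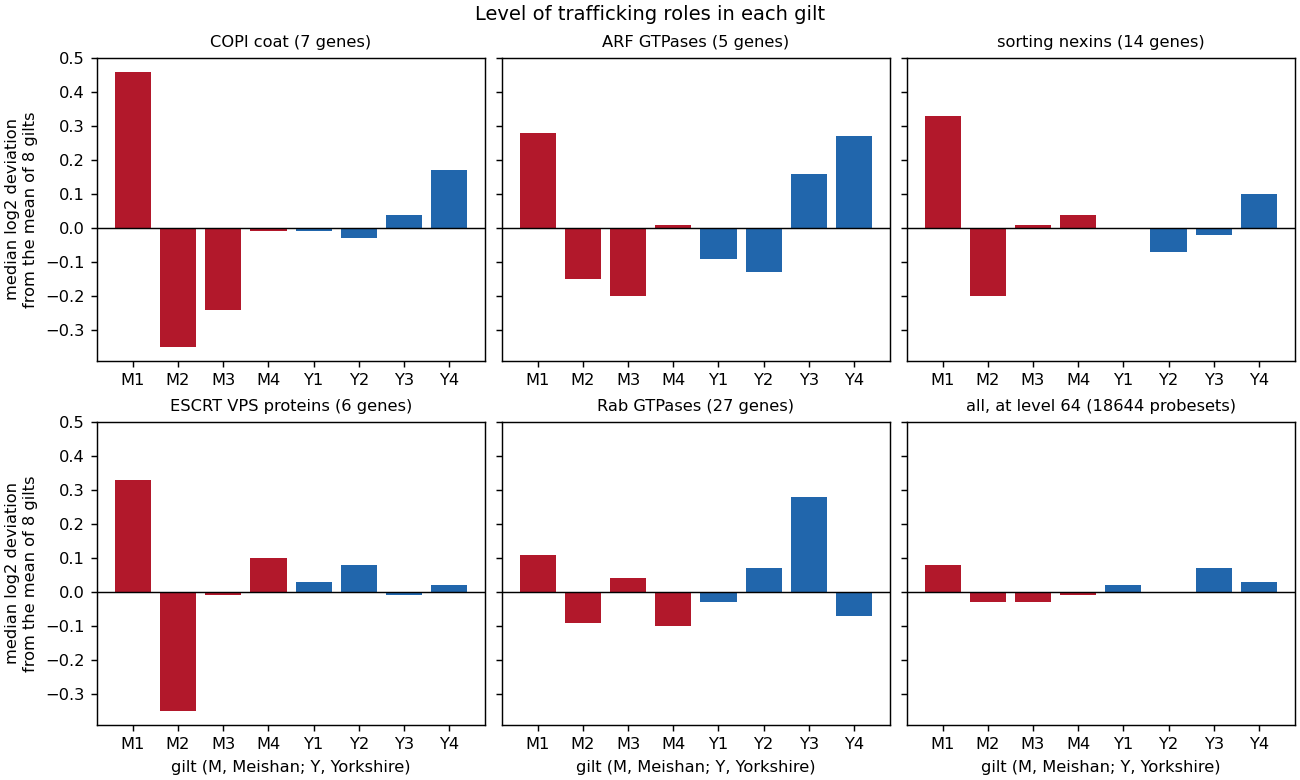
Median log2 deviation from the mean of the 8 gilts, per gilt (M, Meishan; Y, Yorkshire), for 5 trafficking roles with each gene at its brightest probeset, and for all probesets that reached 64. Meishan gilt 1 is at 0.46 in the COPI coat and at 0.08 over all probesets.

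SNX9, which bends the membrane with dynamin in endocytosis, had the largest difference of all members. It had 243, 317, 288 and 348 in Meishan gilts and 67.4, 72.0, 16.0 and 23.7 in Yorkshire gilts. Every Meishan gilt was above 64 by a wide margin, while 2 Yorkshire gilts were just above 64 and 2 below. The log2 difference was 3.01. The study's list named this probeset because it differed between these same 8 arrays, so the value is a description and no test is given. The same holds for the other 7 members named by that list alone. RABEP1, an effector of RAB5 on early endosomes, had 389, 183, 225 and 268 in Meishan and 132, 86.5, 105 and 143 in Yorkshire. VPS18 gave 0.69 and RAB3GAP1 0.82 toward Meishan, and STX10 -0.82, SNX7 -0.88 and RAB11FIP2 -0.56 toward Yorkshire. RAB19 gave 32.7 to 95.6 in Meishan and 3.84 to 46.7 in Yorkshire, where no gilt reached 64, so no difference is given. Probesets that the annotation gives to the same genes were not called, and gave -0.22 for RAB3GAP1, -0.23 and 0.19 for RAB19, -0.20 and 0.19 for VPS18, and -0.39 and 0.13 for STX10.

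Of the 21 sorting nexin probesets named by the annotation, 11 were higher in Meishan and 10 higher in Yorkshire. None passed the adjusted test, and 2 (9.52%, against 14.8% of all probesets) had an unadjusted p under 0.05, both toward Yorkshire. SNX14 gave 78.2, 99.5, 158 and 80.3 in Meishan and 129.6, 214, 203 and 162 in Yorkshire, a difference of -0.80 with a limma adjusted p of 0.256. Meishan gilt 3 lay above Yorkshire gilt 1, and the brighter SNX14 probeset gave 0.04. SNX1, SNX5 and SNX6 curve the membrane of endosomal tubules together with the retromer. The 4 probesets of SNX6 gave -0.49, -0.34, -0.20 and 0.02, those of SNX5 0.37 and 0.23, and SNX1 0.08. SNX10 gave 1069, 1264, 354 and 965 in Meishan and 422, 558, 532 and 612 in Yorkshire, where Meishan gilt 3 was the lowest of all 8 and the other 3 Meishan gilts the highest, with a difference of 0.65 and an adjusted p of 0.491. SNX12 gave 562, 292, 348 and 402 in Meishan and 531, 576, 479 and 607 in Yorkshire, a difference of -0.49 with overlap through Meishan gilt 1. SNX3, a partner of the retromer, gave 11117, 6317, 7163 and 7763 in Meishan and 7248, 6160, 7652 and 8426 in Yorkshire, where Meishan gilt 1 was again the highest.

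The retromer, which carries cargo from endosomes back to the Golgi and the surface, was represented by VPS26A, VPS26B and VPS29. The dimmest of 3 VPS26A probesets had 170.4, 319.8, 217 and 179 in Meishan and 22.6, 104, 80.8 and 48.8 in Yorkshire. The gilts did not overlap, and 2 Yorkshire gilts were below 64. The difference was 1.96 ± 0.48 (95% interval 0.86 to 3.06) with a limma adjusted p of 0.14. The 2 other VPS26A probesets, with signals of 497 to 2786 over all gilts, gave 0.06 (95% interval -0.46 to 0.59) and 0.01 (95% interval -0.41 to 0.42). VPS29 gave 0.07 and the bright VPS26B probeset -0.32. The probesets of VPS26A thus reported different sizes, and which part of the transcript each one reads was not examined here.

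**Figure D5:**
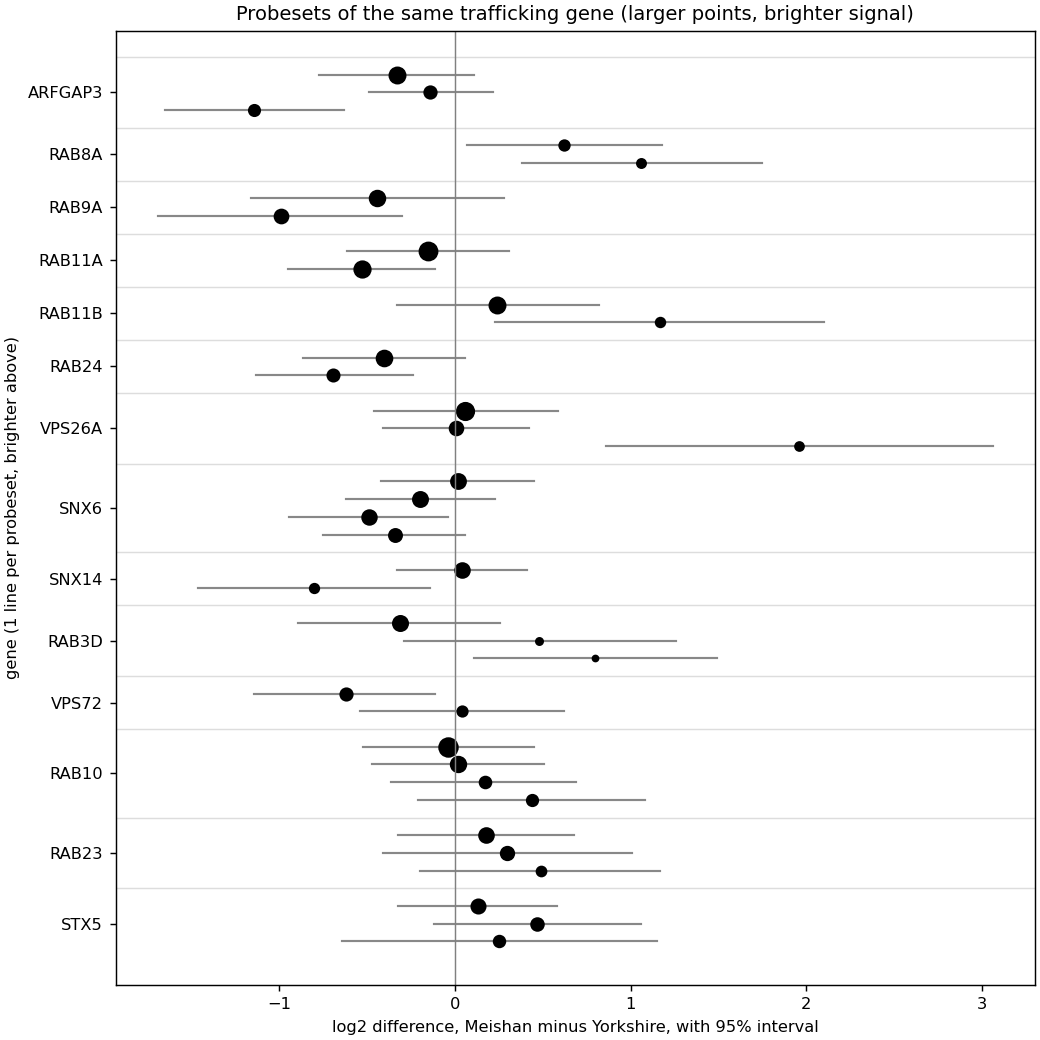
Log2 difference (Meishan minus Yorkshire) with its 95% interval for each probeset of 14 genes, with brighter probesets above and drawn larger. In every gene shown except VPS72 the brightest probeset has a smaller difference in size than the one with the lowest p. A lowest p favours a large difference, so this is partly set by the choice of probeset.

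Probesets of the same gene often lay on different sides of 0. Of 42 genes with 2 or more annotation-named probesets, 20 had all on 1 side, 11 toward Meishan and 9 toward Yorkshire, and 22 were split. A difference near 0 can take either sign, as in SNX17 at 0.14 and -0.03, so a split does not by itself show that probesets disagree. Nor does 1 side mean 1 size, as in VPS26A at 1.96, 0.01 and 0.06. Genes with all probesets on 1 side included RAB8A, RAB11B and VPS26A toward Meishan and RAB11A, RAB9A, RAB24 and ARFGAP3 toward Yorkshire, and these 7 stayed so under each scaling tried. SNX14, SNX6, RAB3D and VPS72 were split with an unadjusted p under 0.05 in 1 probeset. VPS72 gave -0.62 and 0.04.

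ESCRT proteins, which sort ubiquitinated cargo into multivesicular bodies, had 3 probesets higher in Meishan and 5 higher in Yorkshire, and none had an unadjusted p under 0.05. VPS28 gave 956 to 1596 in Meishan and 1118 to 1346 in Yorkshire, a difference of 0.05, and a dim VPS28 probeset gave 30.6 to 138 in Meishan and 41.3 to 94.6 in Yorkshire. VPS36 gave -0.54, VPS25 0.21 and the bright probeset of VPS4A, the ATPase that takes ESCRT filaments apart, -0.13. A dim VPS4A probeset gave -1.46, with 60.1, 4.53, 56.6 and 96.7 in Meishan and 82.4, 106, 82.4 and 119 in Yorkshire, so that Meishan gilt 2 set most of the difference. Other VPS proteins were divided as well, with 8 probesets higher in Meishan and 10 higher in Yorkshire. VPS11, VPS16, VPS18 and VPS33A form the shared core of the tethers that fuse endosomes and lysosomes. VPS16 had 451, 493, 458 and 588 in Meishan and 371, 405, 388 and 360.0 in Yorkshire, while VPS11 had 432, 419, 461 and 455 in Meishan and 549, 495, 582 and 494 in Yorkshire. Neither pair of groups overlapped, with differences of 0.38 for VPS16 and -0.26 for VPS11 and limma adjusted p of 0.34 and 0.48. A second, dimmer probeset gave -0.14 for VPS16 and 0.11 for VPS11. VPS13C, a lipid transfer protein, gave 169, 374, 195 and 213 in Meishan and 379.7, 713, 518 and 266 in Yorkshire, a difference of -0.96 with an adjusted p of 0.287.

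Syntaxins were higher in Meishan for 8 of 18 probesets and higher in Yorkshire for 10, turning to 10 and 8 under both other scalings. An unadjusted p under 0.05 was found for 2 (11.1%, against 14.8% of all probesets). STX4, the syntaxin of the plasma membrane on which secretory vesicles dock, had 173, 145, 135 and 151 in Meishan and 131, 80.1, 95.9 and 123 in Yorkshire. The gilts did not overlap, by a small margin, and the difference was 0.51 ± 0.21 with a limma adjusted p of 0.315. The brighter STX4 probeset gave 0.17. STX8, an endosomal syntaxin, had 587, 526, 524 and 803 in Meishan and 864, 786, 1078 and 1046 in Yorkshire. Only Meishan gilt 4 and Yorkshire gilt 2 crossed, and the difference was -0.64 ± 0.21 with an adjusted p of 0.227, whereas the other STX8 probeset gave -0.06. The brightest of the 4 probesets shared by STX12 and STX7, both endosomal, had 1259, 2187, 1411 and 1170 in Meishan and 2273, 2140, 2562 and 1700 in Yorkshire. Meishan gilt 2 lay among the Yorkshire gilts and the other 3 Meishan gilts below them, and the difference was -0.56 with an adjusted p of 0.355. STX5 of the Golgi had 3 probesets at 0.13 to 0.47. Of the VAMPs, which sit on vesicles and pair with syntaxins, VAMP8 of secretory granules and late endosomes was the brightest, with 3100 to 4385 in Meishan and 3768 to 5237 in Yorkshire. VAMP8 differed by -0.16, VAMP3 by -0.21, VAMP2 by -0.22 and VAMP7 by 0.07.

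A further 176 genes of the same machinery that lie outside the symbol rule were listed, among them COPII, clathrin adaptors, other SNAREs, tethers and regulators. The array measured 100 of them with 157 probesets, of which 74 were higher in Meishan and 83 higher in Yorkshire, with a median of -0.04. None was called by limma at an adjusted p under 0.1 (0 to 5 under the alternative settings), and 15 (9.55%, against 14.8% of all probesets) had an unadjusted p under 0.05, 6 toward Meishan and 9 toward Yorkshire. EXOC2, a subunit of the exocyst that tethers secretory vesicles to the plasma membrane, had 1353, 1371, 1345 and 1207 in Meishan and 2680, 2870, 3453 and 1919 in Yorkshire. The gilts did not overlap, the Meishan gilts lay close together, and the difference was -1.02 ± 0.21 with an adjusted p of 0.107. AP3B1, a subunit of the AP-3 adaptor of lysosome-related organelles, had 1255, 789, 885 and 1123 in Meishan and 559.7, 561, 367 and 595 in Yorkshire, again without overlap. Its difference was 0.96 ± 0.24 with an adjusted p of 0.145. Tethers had 6 of 26 probesets with an unadjusted p under 0.05 (23.1%, against 14.8% of all probesets), 1 toward Meishan and 5 toward Yorkshire. This was the highest share among these lists, the others having 2.86% to 10.5%, and the difference in shares was not tested. They were EXOC2, COG2, TRAPPC12 and 2 of the 4 probesets of the Golgi tether GOLGA2 toward Yorkshire, and COG4 toward Meishan. Those 2 GOLGA2 probesets bear the same identifier apart from its suffix, so they may not be separate readings. The second COG4 probeset gave 0.08 with overlapping gilts. CHMP1B of ESCRT (-0.72), RIN3, an activator of RAB5 (-1.22), and 1 of 3 PREB probesets (1.01) did not pass, with limma adjusted p of 0.183, 0.222 and 0.229. PREB starts COPII assembly, and its other probesets gave 0.51, for the brightest, and 0.23, both with overlapping gilts, and the second CHMP1B probeset gave -0.51. SYT2, a calcium sensor of secretion whose probeset the study's list names KLHL5, so that its identity is uncertain, had 35.3, 46.1, 97.3 and 110.4 in Meishan against a mean of 8.26 in Yorkshire, where no gilt reached 64, and no fold is given.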

How the data were processed

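The authors hybridized endometrial RNA of 8 gilts to one-colour Affymetrix Porcine Genome arrays, and the deposited values are linear intensity signals made with GCOS 1.2, scaled to a mean of 500.1 after trimming 2% at each end. Each array holds 24123 probesets, of which 124 controls were left out. Signals were put on the log2 scale, centred on the median of each array, and the breeds were compared (Meishan minus Yorkshire) by limma 3.58.1 in R 4.3.3 (prior degrees of freedom 2.09) with Benjamini-Hochberg adjustment over 23999 probesets. An adjusted p under 0.1 counted as a call. The number of arrays limits the precision, and detection calls were not used here.

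Members and gene lists were chosen with earlier results of these data known. Members were named from the array annotation or from the study's list of probesets with a low q-value on these arrays (2502 used). Since that list was chosen by the breed difference, the 8 members it alone names entered the fit across all probesets, but no p is given for them and nothing rests on them. Its fold changes and q-values were not used. The rule for names took called members, the 12 lowest p in each direction, members on the study's list, the brightest of each role, genes with opposed probesets, members with the widest spread, and the 3 lowest p in each direction among other trafficking genes. Genes outside this rule illustrate ranges of a role.

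The replicate numbers do not pair gilts, as deviations of same-numbered gilts correlated at -0.0561, 0.089, 0.00105 and 0.0407. Each gilt is a separate animal. Alternatives were other scalings, a filter and a floor on dim signals, an intensity trend, Storey q-values and an adjusted p under 0.05. Others were the replicate number as a block, annotation names only, the brightest probeset of a gene, and each gilt left out. A further one was an unmoderated model with q-values, built after the study's methods. It called 582 of all probesets, fewer than the study reports at a q-value under 0.1. The procedure was tested on simulated data. Slide and scan order are not given in the sources used here.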

Additional observations from a re-analysis of the deposited data

Results flagged for a closer look

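In 124 groups of 4 gilts, the gap of an extreme gilt to its nearest neighbour was taken as a share of the group's range, on log2 signals. In 7 groups this share passed Dixon's 95% critical value. Chance gives about 1 in 20, so the count is near the chance rate. RAB11B was low in Meishan gilt 4 at 99.0, against 252 to 296 in the other Meishan gilts, and without that gilt the log2 difference was 1.52. RAB11A was high in Yorkshire gilt 1 at 2114, against 1675 to 1704 in the other Yorkshire gilts, and the same gilt was high for SNX5 at 2968, against 2103 to 2226. COPA was high in Yorkshire gilt 4 at 4331, against 3141 to 3222. Among trafficking genes outside the symbol rule, AP3B1 was low in Yorkshire gilt 3 at 367, against 559.7 to 595, and RIN3 in Yorkshire gilt 2 at 145, against 386 to 436. EXOC2 was low in Meishan gilt 4 at 1207, against 1345 to 1371 in the other Meishan gilts.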

How the results depend on the processing

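Counts over all 166 members include those named by the study's list alone, which was chosen by this same difference, so they support nothing. Of the 158 named by the annotation, 1 was called, 0 without further scaling, at an adjusted p under 0.05 and with any gilt left out, 1 in the unmoderated model, 2 with quantile normalization, the filter or the intensity trend, and 3 with the floor or Storey q-values. The share called over all probesets moved as well. It was 0.908% in the main fit, 0.883% without further scaling, 0.996% with quantile normalization and 2.43% in the unmoderated model. With the filter it was 3.11%, with the intensity trend 2.61%, with the floor 3.6% and with Storey q-values 2.63%. Over all 166, members called were 2 (1 toward Meishan, 1 toward Yorkshire), with 218 called over all probesets and 0 among the other trafficking genes. Here, with the brightest probeset of each gene and with gilts left out, the 1 toward Meishan was a member that the list alone names. It is therefore not a result. Members called, toward Meishan and toward Yorkshire, all probesets and other trafficking genes were 1, 1, 0, 212 and 0 without further scaling, 3, 1, 2, 239 and 0 with quantile normalization, 5, 3, 2, 580 and 2 with the filter on dim probesets (18644 tested), and 6, 3, 3, 863 and 5 with a floor of 32. They were 4, 3, 1, 626 and 3 with an intensity trend, 3, 2, 1, 582 and 4 in the unmoderated model with q-values, 6, 3, 3, 632 and 2 with Storey q-values, and 0, 0, 0, 60 and 0 at an adjusted p under 0.05. Annotation names alone gave 1, 0 and 1, and the brightest probeset of each gene 1, 1 and 0. A replicate block in the limma model left 0 calls in each set, with 3327 probesets at an unadjusted p under 0.05, although the numbers do not pair gilts.

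With each gilt left out, members called ranged from 0 to 1, toward Meishan 0 to 1, toward Yorkshire 0, all probesets 72 to 205 and other trafficking genes 0 to 1, EXOC2 being the 1 called, without Yorkshire gilt 4 (adjusted p 0.0874). ARFGAP3 was called in 6 of 16 alternatives, RAB24 in 1 of 16, VPS26A in 4 of 16 and RABGAP1 in 2 of 15. Where a difference changed sign, it then lay within 0.11 of 0. VPS41 gave 0.00 with quantile normalization. With gilts left out the range was -0.19 to 0.07 for RABAC1, -0.21 to 0.00 for RAB2A, -0.05 to 0.22 for SNX3 and -0.05 to 0.15 for VPS29. It was -0.06 to 0.19 for the bright VPS28 probeset and -0.04 to 0.79 for a dim RAB3GAP2 probeset. The SNX14 probeset at 0.04 gave -0.03 to 0.10, the SNX6 probeset at 0.02 gave -0.11 to 0.07, and the VPS72 probeset at 0.04 gave -0.08 to 0.21. The probesets with the lowest p of these genes stayed negative, at -1.02 to -0.68 for SNX14, -0.62 to -0.42 for SNX6 and -0.78 to -0.52 for VPS72. The cause of the sign changes was not tested. With 4 gilts a breed, small differences in dim probesets cannot be resolved.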
